A study of Rattus norvegicus with 16 samples.

Results

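The Fos and Jun families were followed in the rat hypothalamus through 6 genes, Fos, Fosb, Fosl2, Jun, Junb and Jund. The members were every probe set (a set of short probes for a transcript) that the array's annotation assigns to exactly 1 of these symbols, which gave 12 of 31042 probe sets that are not array controls. RNA came from 16 male Wistar rats, 7 to 8 weeks old, with a separate array for each rat. The rats formed 4 groups of 4: restraint for 2 h while inhaling (R)-(-)-linalool, restraint for 2 h without odour, inhalation of (R)-(-)-linalool for 2 h without restraint, and control rats with neither. (R)-(-)-linalool is a mirror-image form of a floral monoterpene alcohol of plant oils. The layout asks what restraint changes, what the odour changes, and whether the odour alters the change with restraint.

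Fos and Jun proteins are the classic subunits of AP-1, a dimer of leucine zipper proteins that binds DNA and switches genes on or off. A Fos protein needs a Jun partner, whereas Jun proteins also pair with each other. Fos, Fosb, Jun and Junb are immediate early genes, transcribed within minutes of a stimulus, and Fos messenger RNA is widely used as a mark of recently activated neurons in the hypothalamus of stressed rodents. Jund is mostly expressed at a steady level, and Fosl2 encodes Fra-2, a Fos relative that tends to appear later.

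Values below are signals after quantile normalization, which gives every array the same distribution of values, and signals of different probe sets are not set against each other as amounts of RNA. Differences are on the log2(signal + 16) scale, which understates the change of dim probe sets, with limma's standard error (SE) and a Benjamini-Hochberg adjusted p over 18625 probe sets. These 18625 had a mean level at or above the 40th percentile. Of the members, 8 of 12 probe sets and 5 of 6 genes passed that filter. Genes with an adjusted p below 0.05 are described as called. The labels number the samples within each group, and each sample is taken as a separate rat, so p-values measure the spread between rats on that reading. In whole hypothalamus, more cells that express a gene and more RNA per cell cannot be told apart.

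Before normalization the median signal per array lay between 67.03 and 127.4. A hybridization control, BioC, stood at 915.9 to 968.4 on 3 arrays (restraint with linalool rat 2, linalool rats 2 and 4) and at 247.5 to 283.4 on the other 13. No label names this split as a batch. The share of called probe sets that were higher depended on the scaling of the arrays. It was 66.6% for restraint with linalool against linalool, 69.6% for restraint against control, 62.9% for the average restraint effect and 61.1% for restraint with linalool against control. With the deposited values, in which the median of all probe sets was shifted by 0.32, 0.10, 0.21 and 0.16 in the same order, it was 99.4%, 85.2%, 98.2% and 94.2%. With each array scaled to a common median the last share was 49.7%. The ratio of the 3' to the 5' beta-actin probe set, a sign of RNA integrity, was 2.535 to 3.471 in rats with restraint and linalool, 2.842 to 3.5 in restrained rats, 2.861 to 3.339 in linalool rats and 2.082 to 4.927 in controls. Of 17 hypothalamic markers 15 were named on the array and 12 passed the filter, among them Pmch, Oxt and Avp above the 98th percentile of level, while Pomc, Sim1 and Otp lay below the filter.

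Restraint in the presence of linalool raised Fos, Jun and Fosb against linalool alone. Of the 5 member genes tested, each by its brightest probe set, 3 rose and 0 fell, where 1.02% of all 10309 genes rose and 0.708% fell. With Junb, 4 of the 5 had an unadjusted p under 0.05, as did 16.9% of all genes. Fosb passed the filter only through the restrained groups, so its test with no filter is given below. The median change over the 5 was 0.81 on the log2 scale, which is the value of Fosb itself, against -0.04 over all genes. On 5 of the 8 probe sets that passed the filter the groups did not overlap and restraint was higher, where 5.7% of all probe sets did so. Those 5 include Fosb and every Jun probe set. The filter favours Fosb in these counts and in the median, and the shares over all genes do not correct for that.

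Fos, the founding member of its family, was read by probe set 1375043_at (84.4th percentile of level) at chr6:110852188-110855054 of the GRCr8 assembly. Its signals were 1729, 1459, 834.4 and 661.1 in rats with restraint and linalool, against 437, 383.3, 354.4 and 310.3 in linalool rats. Every rat of the first group was above every rat of the second, and the spread was wide in the first. Fos rose by 1.52 (SE 0.29, 95% interval 0.91 to 2.13, adjusted p = 0.014), a 2.87-fold change. Without restraint with linalool rat 1 the difference was 1.30 (adjusted p = 0.0522), and without rat 2 it was 1.38 (adjusted p = 0.0587).

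In restrained rats without odour, Fos signals were 802.5, 619.9, 326.9 and 617.8, against 494, 353, 353.3 and 276.6 in controls. Rat 3 of the restrained group lay within the control range, so the groups overlapped. The difference was 0.62 (SE 0.29, 95% interval 0.01 to 1.23, adjusted p = 0.39). Averaged over both odour conditions, Fos rose with restraint by 1.07 (SE 0.20, adjusted p = 0.00691). A second Fos probe set, 1371283_at, was dim, at the 12.2th percentile of level and 3.009 to 28.02 in all rats, with overlapping groups.

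Fosb, whose protein and its short form DeltaFosB pair with Jun proteins, lies at chr1:88082324-88089506 and was read by 1373759_at, just above the filter at the 41.7th percentile. It passed only through the restrained groups. Its mean log2 level was 6.93 with restraint and linalool and 6.46 with restraint, against 6.12 with linalool and 5.88 in controls, and the filter stood at 6.26. A gene that passes in this way is more likely to differ, so the fit over all 31042 probe sets with no filter is given here for each Fosb call of the main fit. Fosb calls given below for the BioC split and the rat number block were made with the filter. Its signals were 136.5, 129.5, 77.39 and 89.66 with restraint and linalool, against 53.6, 55.36, 49.16 and 56.5 with linalool. The groups did not overlap, and the linalool rats lay close together. Fosb rose by 0.81 (SE 0.15, 95% interval 0.49 to 1.12, adjusted p = 0.0117, and 0.0277 with no filter). Without restraint with linalool rat 2 the difference was 0.72 (adjusted p = 0.0518).

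Without odour, Fosb signals were 71.72, 84.04, 57.74 and 77.3 in restrained rats, against 46.6, 36.39, 36.24 and 54.39 in controls. These groups did not overlap either, where 3.35% of all probe sets that passed were higher in this way and 2.8% with no filter. The difference of 0.58 (SE 0.15) missed the threshold, with an adjusted p of 0.0841, and 0.158 with no filter. Averaged over odour, Fosb rose by 0.69 (SE 0.11, adjusted p = 0.00128, and 0.00374 with no filter). All 8 restrained rats lay above all 8 unrestrained rats, as on 0.671% of the probe sets that passed and 0.438% with no filter. Against controls the call for restraint with linalool had an adjusted p of 0.00401 with no filter.

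Fosl2 (chr6:30017952-30039269) was dim on both of its probe sets, at the 24.7th and 15.6th percentile of level, and entered no call. Probe set 1383860_at gave 91.55, 77.39, 24.51 and 2.212 with restraint and linalool, against 4.881, 4.549, 3.6 and 6.197 with linalool. Rats 1 to 3 of the first group lay above all linalool rats and rat 4 lay below them. It gave 33.34, 22.14, 5.558 and 19.48 in restrained rats, against 3.677, 3.611, 2.096 and 8.342 in controls, with rat 3 inside the control range. The other probe set, 1387530_a_at, lay between 25.6 and 64.43 with restraint and linalool, against 6.771 to 29.68 with linalool, and between 22.84 and 43.13 with restraint, against 6.257 to 29.11 in controls.

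For the restraint effect averaged over odour, Fosl2 differed by 1.05 on 1383860_at (exact two-sided permutation p = 0.00694 over 4900 assignments) and by 0.68 on 1387530_a_at (exact permutation p = 0.00571). The smallest p these assignments can give is 0.000408. These are 2 of 28 such tests on the 4 member probe sets below the filter. In a fit over all 31042 probe sets with no filter, the adjusted p was 0.0896 and 0.089, so neither passed. The other 2 dim probe sets, of Fos and Jund, gave exact permutation p of 0.369 and 0.627 for the same effect.

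**Figure D1:**
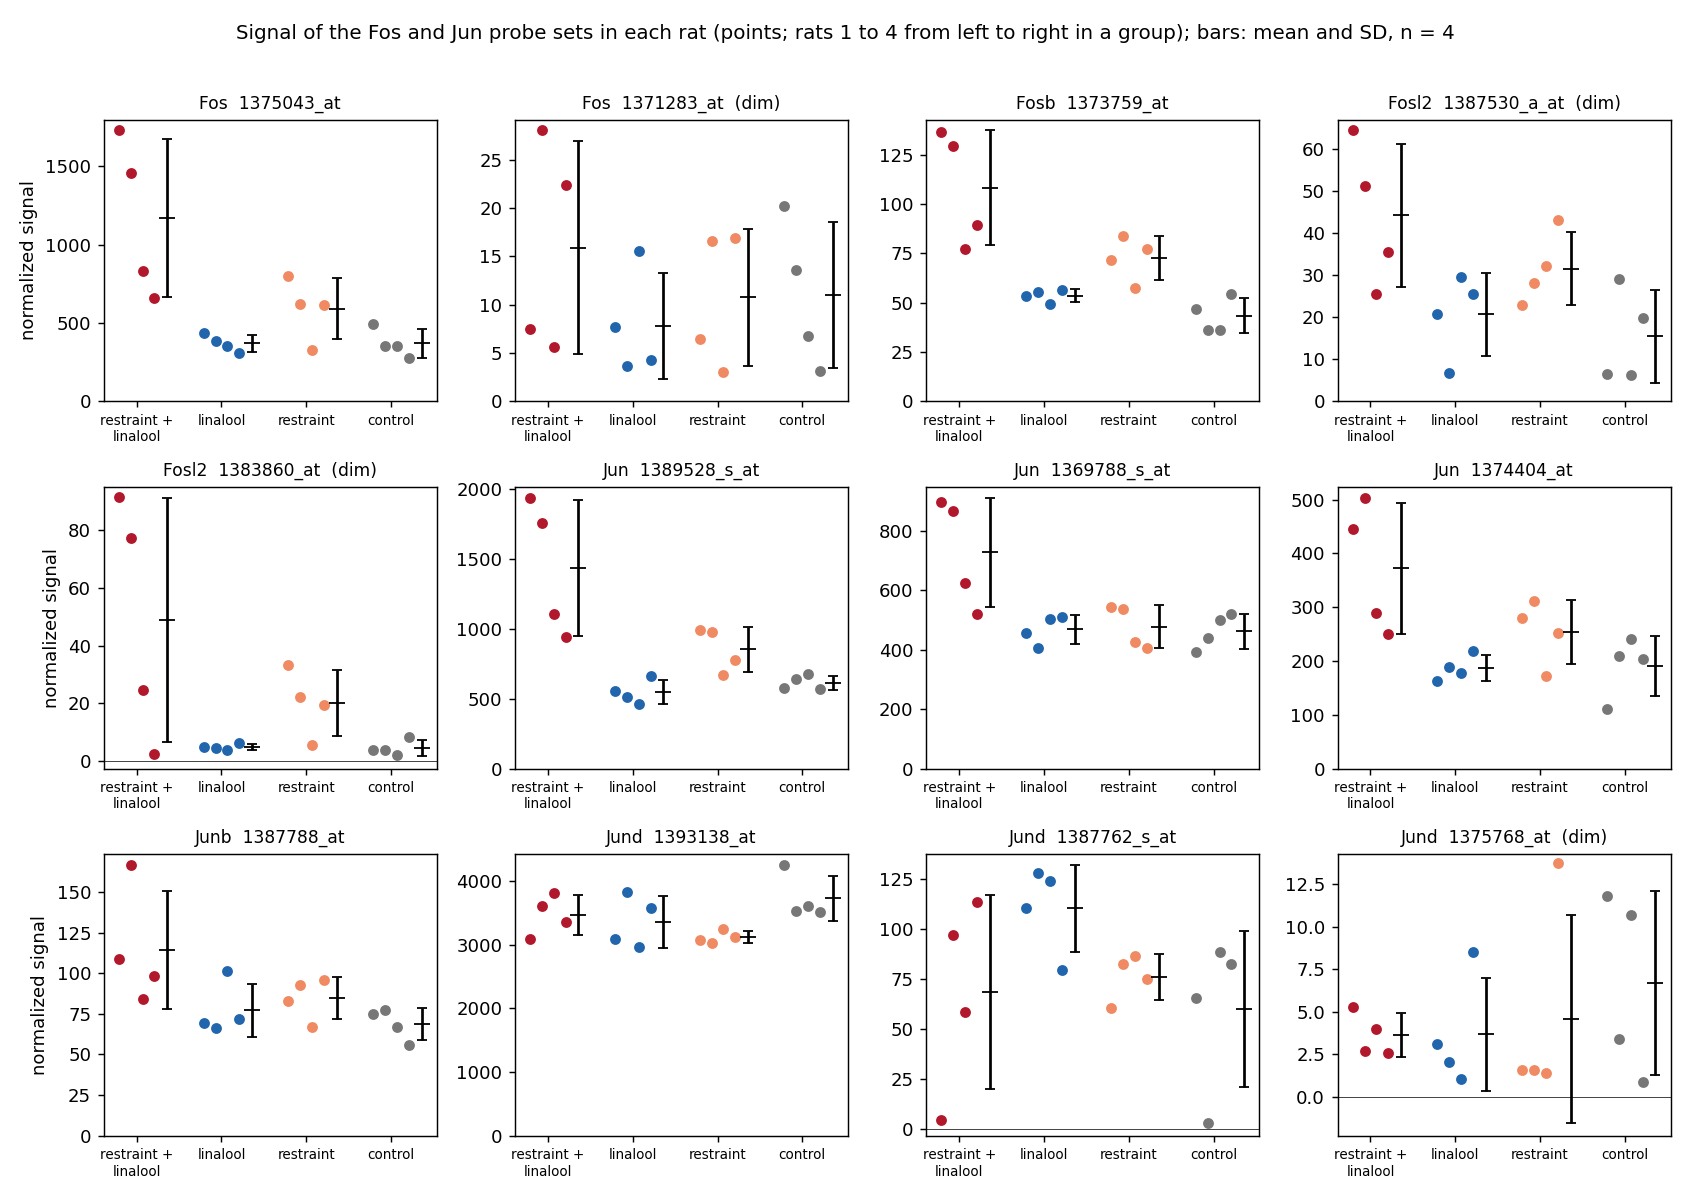
Normalized signal (vertical axes, linear, a scale for each panel) of the 12 Fos and Jun probe sets in each of the 16 rats, with groups along the horizontal axis, points for rats and bars for mean and SD (n = 4). Fos 1375043_at reached 1729 with restraint and linalool against at most 437 with linalool, while Jund 1393138_at stayed between 2961 and 4252 in all rats.

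Jun, the main partner of Fos in AP-1, lies at chr5:115009900-115012993 and was read by 3 probe sets that all passed the filter. The brightest, 1389528_s_at (89.9th percentile), gave 1940, 1756, 1107 and 938.4 with restraint and linalool, against 553.3, 513.1, 461.4 and 662.1 with linalool. The groups did not overlap. Jun rose by 1.31 (SE 0.20, 95% interval 0.89 to 1.73, adjusted p = 0.00336), a 2.48-fold change. It kept its call without any single array, with an adjusted p of at most 0.0174.

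The other 2 Jun probe sets differed less. Probe set 1369788_s_at differed by 0.59 (SE 0.16, adjusted p = 0.0756), with 520.4 to 899.4 in rats with restraint and linalool, against 405.6 to 509.9 in linalool rats. Probe set 1374404_at differed by 0.89 (SE 0.24, adjusted p = 0.0719), with 250.6 to 503.8 against 163 to 218.5 in the same groups. Neither had overlapping groups and neither passed the test. The probe sets read the same gene and are not independent of each other, and a name ending in _s_at marks probes that can match more than a single transcript.

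Between restrained rats and controls without odour, Jun signals on 1389528_s_at were 995.5, 977.8, 666.5 and 774, against 573.7, 640.9, 674.3 and 570.1. Only restrained rat 3 fell within the control range. The difference was 0.45 (SE 0.20, adjusted p = 0.362). It was 0.40 on 1374404_at and 0.04 on 1369788_s_at, with adjusted p of 0.517 and 0.945. Averaged over odour, Jun rose by 0.88 on 1389528_s_at (SE 0.14, adjusted p = 0.00183) and by 0.65 on 1374404_at (SE 0.17, adjusted p = 0.0393), and differed by 0.32 on 1369788_s_at (adjusted p = 0.129). The call on 1374404_at was lost under 13 of 26 alternatives, where the differences were 0.56 to 0.67. Over all alternatives they ran from 0.54 to 0.87.

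Junb, an early gene whose protein often tempers Jun, lies at chr19:40081126-40082910 and was read by 1387788_at (46.6th percentile). Its signals were 108.8, 166.7, 84.38 and 98.09 with restraint and linalool, against 69.67, 66.29, 101.2 and 71.64 with linalool. Linalool rat 3 lay above 2 of the restrained rats. The difference was 0.46 (SE 0.17, 95% interval 0.11 to 0.81, adjusted p = 0.182). With the deposited values, not normalized between arrays, it was 0.79 (adjusted p = 0.0168), in a setting where the median of all probe sets shifted by 0.32.

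Without odour, Junb signals were 82.96, 92.52, 67.05 and 95.62 in restrained rats, against 74.79, 77.32, 67.02 and 55.59 in controls, with a difference of 0.25 (SE 0.17, adjusted p = 0.582). The groups overlapped through restrained rat 3. Averaged over odour the difference was 0.35 (SE 0.12, adjusted p = 0.103). With the deposited values it was 0.57 (adjusted p = 0.011), where the median of all probe sets shifted by 0.21.

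Jund, the steadily expressed member, lies at chr16:18768093-18769771. Its brightest probe set, 1393138_at, stood at the 98.7th percentile of level. Signals were 3087, 3607, 3804 and 3361 with restraint and linalool, against 3083, 3823, 2961 and 3573 with linalool, and the groups overlapped fully. The difference was 0.05 (95% interval -0.16 to 0.25, adjusted p = 0.862). Without odour they were 3079, 3027, 3242 and 3112 in restrained rats, against 4252, 3528, 3598 and 3515 in controls. Here all restrained rats were below all controls, where 2.57% of probe sets were lower in this way, but the difference of -0.25 (SE 0.10, adjusted p = 0.283) did not pass.

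A second Jund probe set above the filter, 1387762_s_at, ran from 58.39 to 127.6 in 14 rats but was at 4.333 in restraint with linalool rat 1 and 3.083 in control rat 2. Its largest difference between 2 groups was 0.98, for linalool against control (SE 0.53, adjusted p = 0.557). The third, 1375768_at, was at 0.89 to 13.71 in all rats and is reported only as dim.

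The promoters of Junb and Jund, the Jun family genes that were not called, are shown because each holds a motif that was searched. RefSeq promoter entries were matched for 4 of the 6 genes, Fosb, Fosl2, Junb and Jund. Each line gives the 250 bases before the start in the gene's entry, 5′ to 3′ on the gene's strand, from GRCr8, at chr19:40080876-40081125 (plus strand) and chr16:18769772-18770021 (minus strand). Capitals mark the matched motifs.
Junb: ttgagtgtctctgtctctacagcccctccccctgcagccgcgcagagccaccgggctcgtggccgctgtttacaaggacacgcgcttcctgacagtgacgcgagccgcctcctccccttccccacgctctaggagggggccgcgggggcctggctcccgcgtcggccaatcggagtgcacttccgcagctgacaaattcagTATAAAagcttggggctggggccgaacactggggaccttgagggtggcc
Jund: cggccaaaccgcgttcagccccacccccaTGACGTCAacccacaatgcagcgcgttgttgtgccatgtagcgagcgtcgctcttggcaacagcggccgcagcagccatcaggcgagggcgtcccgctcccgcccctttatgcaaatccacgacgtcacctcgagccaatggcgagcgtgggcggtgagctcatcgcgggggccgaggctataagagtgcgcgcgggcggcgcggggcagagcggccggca

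The motifs were searched on both strands, and no 2 matches overlapped. The cAMP response element TGACGTCA, a site of CREB and some AP-1 dimers, stood 221 to 214 bases before the start of Jund, and 1.59% of 33469 promoters held it. The TATA box TATAAA stood 49 to 44 bases before the start of Junb, against 12.9% of promoters. In the Fosb entry TATAAA stood on the opposite strand, 180 to 175 bases before the start that this entry uses, which lies inside the gene's interval given above, so that the Fosb window is not upstream of the whole gene. The AP-1 site TGACTCA (4.05% of promoters), TGACATCA (3.8%), TGACGTAA (0.75%), TGACGCAA (0.436%) and the CArG box of serum response factor (1.5%) had no match in these 4 windows. Fosl2 held none of the motifs.

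**Figure D2:**
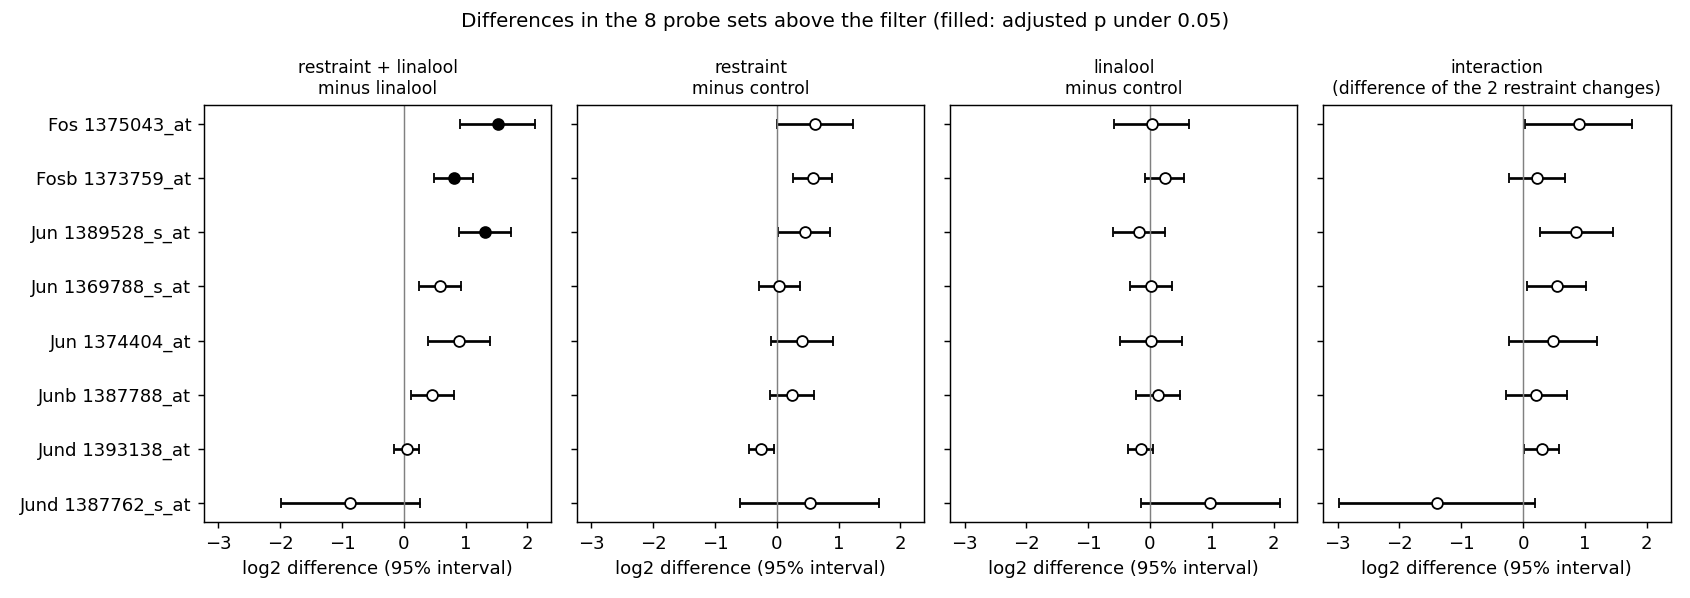
Log2 differences (horizontal axes, points) with 95% intervals (bars) for the 8 probe sets above the filter (vertical axis), 4 rats per group, with filled points for calls. Fos, Fosb and Jun 1389528_s_at are called for restraint with linalool against linalool (1.52, 0.81 and 1.31), and the panels for restraint against control, linalool against control and the interaction hold no call.

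Restraint without odour gave no member call against controls. With limma 0 of 5 genes passed, where 0.621% of all genes rose and 0.262% fell, and 4 of the 5 had an unadjusted p under 0.05 (Fos, Fosb and Jun higher, Jund lower), as did 12.3% of all genes. The median over the 5 genes, Fosb included, was 0.45, against -0.004 over all genes. For the restraint effect averaged over odour, 3 of 5 rose (Fos, Fosb, Jun) and 0 fell, where 2.43% of all genes rose and 1.93% fell. Together with Junb, 4 of the 5 had an unadjusted p under 0.05 (19.5% of all genes). Against untreated controls, rats with restraint and linalool were called higher in the same 3 of 5 genes, where 1.82% of all genes rose and 1.88% fell, and 18.5% had an unadjusted p under 0.05. The rise was 1.55 for Fos (SE 0.29, adjusted p = 0.00785), 1.05 for Fosb (SE 0.15, adjusted p = 0.00135) and 1.14 for Jun (SE 0.20, adjusted p = 0.00521). That comparison shares its restrained rats with the first and its controls with the second. In it 6 of 8 probe sets, Fosb among them, were higher without overlap (5.05% of all), and Junb differed by 0.59 (SE 0.17, adjusted p = 0.0563). The other Jun probe sets rose by 0.61 on 1369788_s_at (adjusted p = 0.0424) and 0.90 on 1374404_at (adjusted p = 0.0439), calls that were lost under 19 and 18 of 27 alternatives.

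Linalool without restraint left the 5 genes between -0.17 (Jun) and 0.24 (Fosb) of controls, and limma called 0 of 5, as it called 0% of all genes. None of the 8 probe sets had an unadjusted p under 0.05, against 10% of all genes. The 95% interval of the Fos difference, 0.03, ran from -0.58 to 0.64. That of the Fosb difference, 0.24, ran from -0.08 to 0.56.

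Among restrained rats, those with linalool had higher mean Fos, Fosb and Jun than those without, but limma called 0 of 5 genes, where 0.349% of all genes rose and 0.0485% fell. The differences were 0.93 for Fos (SE 0.29, adjusted p = 0.167), 0.46 for Fosb (SE 0.15, adjusted p = 0.183) and 0.69 for Jun (SE 0.20, adjusted p = 0.131), each with an unadjusted p under 0.05 (11.2% of all genes) and with overlapping groups. Junb differed by 0.35 (adjusted p = 0.401) and Jund by 0.15 (adjusted p = 0.563). For the linalool effect averaged over restraint, 0 of 5 genes were called, where 0.378% of all genes rose and 0.126% fell. The 2 with an unadjusted p under 0.05 (14.5% of all genes) were Fosb (0.35, adjusted p = 0.136) and Fos (0.48, adjusted p = 0.288).

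Whether the change with restraint differed between rats with and without linalool was tested by the interaction. On the brightest probe sets it was positive for all 5 genes, but limma called none, as it called 0% of all genes, and 3 of the 5 had an unadjusted p under 0.05 (7.16% of all genes). It was 0.87 for Jun (SE 0.28, 95% interval 0.27 to 1.46, adjusted p = 0.494), 0.90 for Fos (SE 0.41, 95% interval 0.04 to 1.77, adjusted p = 0.612) and 0.30 for Jund (SE 0.14, adjusted p = 0.612). For Fosb and Junb it was 0.22, with adjusted p of 0.818 and 0.852. On the other Jund probe set above the filter, 1387762_s_at, it was -1.39 (SE 0.75, adjusted p = 0.666), the largest in size of the 8 probe sets and of the opposite sign. That value includes the low signals of restraint with linalool rat 1 (4.333) and control rat 2 (3.083). The mean log2 level of these 2 groups, 6.10 and 5.98, lay under the filter at 6.26.

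The 3 high arrays of the BioC split all belong to the groups that inhaled linalool. Without them, 3 rats with restraint and linalool stood against 2 with linalool, and 0 of 5 member genes were called for that comparison. Of all 18625 probe sets 73 were called in that fit, against 314 with every array. The differences were then 1.29 for Fos (adjusted p = 0.164), 0.77 for Fosb (adjusted p = 0.113) and 1.30 for Jun (adjusted p = 0.05, just over the threshold), and that of Junb was 0.17. Within the high arrays, a single rat with restraint and linalool against 2 with linalool, they were 2.03, 1.02, 1.56 and 1.10. With the split as a block all 3 calls were made, at 1.55, 0.86 and 1.39, where 499 of 18625 probe sets were called. For the average restraint effect without these arrays, Fosb (0.67, adjusted p = 0.0166) and Jun (0.87, adjusted p = 0.0154) were called and Fos was not (0.95, adjusted p = 0.0637). Of 18625 probe sets 458 were called for that effect without them. Against untreated controls Fos was then at 1.41 (adjusted p = 0.0617). Over all probe sets, calls for linalool among restrained rats went from 121 to 0 without these arrays, and for the average linalool effect from 133 to 0. With the split as a block they numbered 51 and 1.

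**Figure D3:**
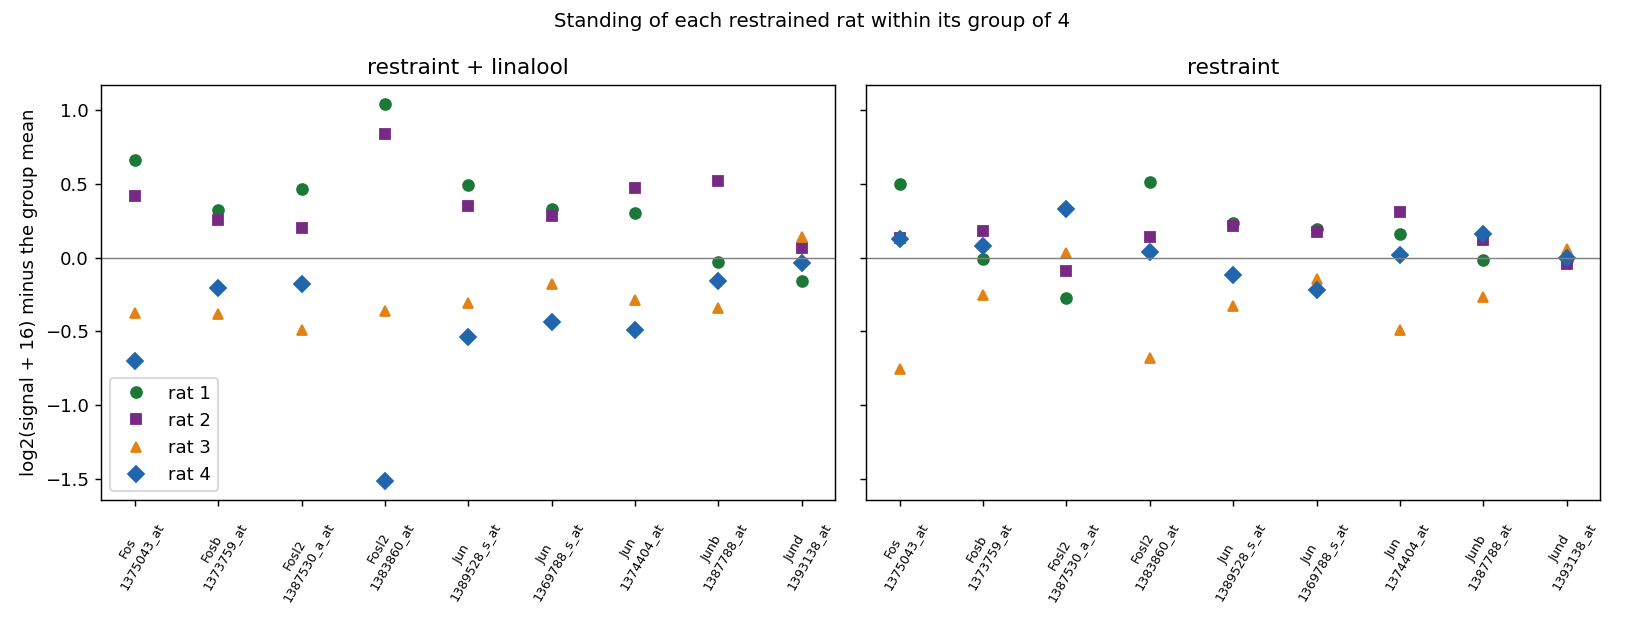
Log2(signal + 16) of each restrained rat minus the mean of its group of 4 (vertical axis) for 9 probe sets (horizontal axis), with a symbol for each rat. With restraint and linalool, rats 1 and 2 lie above rats 3 and 4 on every probe set shown but that of Jund, 1393138_at. That probe set deviates least of those shown (SD 0.13 in this group). The other Jund probe set above the filter, 1387762_s_at, is not shown. Its SD in this group is 1.217, with rat 1 at -1.754.

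The spread within the group with restraint and linalool ran the same way across members, a pattern chosen for description after its values were seen. Rats 1 and 2 were both above rats 3 and 4 on 6 of the 8 member probe sets that passed the filter, where 17.6% of all probe sets that passed showed this order. The exceptions were the 2 Jund probe sets. Both dim Fosl2 probe sets showed it too. On these arrays the beta-actin ratio was 3.471 and 3.014 in rats 1 and 2 and 2.597 and 2.535 in rats 3 and 4, and the median signal before normalization was 117.7 and 116.0, against 110.4 and 110.3. Their part in the order was not tested.

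Fos and Jun also followed each other among 10309 genes. By Pearson's r of log2 values over 16 arrays, Jun was the 8th most like Fos of 10308 genes (r = 0.93), Fosb the 31st (0.89) and Junb the 87th (0.79), while Jund stood at rank 5724 (-0.14). The 5 named genes outside the families most like Fos were Hspd1, a mitochondrial chaperonin (0.96), Zfand2a, a gene of the heat shock response (0.94), Egr1, an immediate early transcription factor (0.93), and the chaperone genes Hspb1 (0.93) and Dnaja1 (0.93). For Jun they were Herc4 (0.96), the early nuclear receptor gene Nr4a1 (0.96), Zfand2a (0.95), Dedd2 (0.95) and Ccdc117 (0.94). The arrays fall into the 4 groups, and part of each r comes from the difference between them.

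After subtracting group means, Egr1 (0.94), Ptges3 (0.92), Hspd1 (0.88), Dnajb1 (0.87) and Bltp3a (0.86) were most like Fos. For Jun they were Nr4a1 (0.93), Herc4 (0.92), Dnajb1 (0.88), the chaperone partner gene Bag3 (0.88) and Ccdc117 (0.85). The r between Fos and Jun was then 0.75, with Jun 33rd among the genes most like Fos. These values describe 16 arrays and carry no test.

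Other genes were counted from 4 lists drawn up around AP-1, which also hold leucine zipper genes that are not AP-1 subunits. Of 24 possible dimer partners and related leucine zipper genes, 16 passed the filter and 3 rose with restraint and linalool against linalool, with 0 lower and a median of 0.23, where 1.02% of all genes rose and their median was -0.04. They were Cebpb (1.34, SE 0.27, adjusted p = 0.021), Cebpd (1.15, SE 0.25, adjusted p = 0.0273) and Nfil3 (0.88, SE 0.19, adjusted p = 0.0295), transcription factors of inflammation and of the clock. Averaged over odour, 6 of the 16 rose and 0 fell (median 0.17), where 2.43% of all genes rose and their median was -0.02. They included Cebpd (1.03, SE 0.17, adjusted p = 0.00309), Nfil3 (0.81, adjusted p = 0.00285), Ddit3, a factor of the stress of the endoplasmic reticulum (0.43, adjusted p = 0.0132), and Cebpb (0.91, adjusted p = 0.0145). Without odour 1 of 16 passed, Ddit3 (0.58, SE 0.13, adjusted p = 0.0437), where 0.621% of all genes rose, with a list median of 0.09 against -0.004.

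Of 26 listed kinases and factors upstream of AP-1, 19 passed the filter, and 0 were called for restraint with linalool against linalool by limma (3 at an unadjusted p under 0.05, where 16.9% of all genes were). For the average restraint effect 2 of the 19 fell and 0 rose, where 1.93% of all genes fell. They were Map2k2, a kinase that activates ERK (-0.24, SE 0.05, adjusted p = 0.0156), and Elk3, a partner of serum response factor (-0.27, SE 0.07, adjusted p = 0.0338). The list's median was -0.05, against -0.02 over all genes. Another kinase of the list, Rps6ka3, differed by 0.26 for that effect (adjusted p = 0.0507). For restraint with linalool against control it was the 1 of 19 that rose (0.44, SE 0.10, adjusted p = 0.0234), and 0 fell, where 1.82% of all genes rose. Of 12 phosphatases that end MAP kinase signals 6 passed the filter and limma called 0 for the average effect (3 at an unadjusted p under 0.05, where 19.5% of all genes were). Their median was 0.13. Those of lowest p were Dusp14 (-0.23, adjusted p = 0.0689) and Dusp1, itself an early gene (0.62, adjusted p = 0.0724).

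Among 24 genes known as AP-1 targets in various cells, 16 passed the filter and 1 rose for the average restraint effect, with 0 lower and a median of 0.06, where 2.43% of all genes rose. It was Hmox1, which degrades haem (0.80, SE 0.20, adjusted p = 0.0338). For restraint with linalool against linalool limma called 0 of the 16 (3 at an unadjusted p under 0.05, where 16.9% of all genes were), with Hmox1 at 1.01 (adjusted p = 0.0903) and Timp1, an inhibitor of matrix proteases, at 0.38 (adjusted p = 0.17). The neuropeptide genes Penk (-0.16), Pdyn (-0.10) and Nts (0.01), often studied as targets in neurons, had adjusted p of 0.28 to 0.976 for the average effect. Between restraint and control without odour limma called 0 of the 16 (2 at an unadjusted p under 0.05, where 12.3% of all genes were). Those of lowest p were Th (1.07, SE 0.245, adjusted p = 0.0515) and Ccnd1 (-0.26, adjusted p = 0.242). Averaged over odour Th differed by 0.40 (adjusted p = 0.217), and its interaction was -1.34 (adjusted p = 0.392).

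Markers of several cell types moved with restraint, and their part in the member values was not tested. For the average restraint effect 2 of 6 microglial markers above the filter fell, P2ry12 (-0.998, adjusted p = 0.000237) and Cx3cr1 (-0.49, adjusted p = 0.00603), where 1.93% of all genes fell. Aif1 (-0.19) and Itgam (-0.09) had the same sign and Csf1r (0.22) and Tmem119 (0.15) the opposite one, with adjusted p of 0.187 to 0.881. The other markers called were Gjb6 of astrocytes (0.29, adjusted p = 0.00833, 1 of 7), Opalin of oligodendrocytes (-0.76, adjusted p = 0.0305, 1 of 5), Slco1a4 of endothelium (-0.34, adjusted p = 0.0472, 1 of 5) and the hypothalamic neuropeptide gene Tac3 (-0.41, adjusted p = 0.00666, 1 of 12). The summed signal of 7 microglial markers was 1564 to 1768 with restraint and linalool, against 1665 to 2122 with linalool, and 1473 to 1850 with restraint, against 1767 to 2049 in controls. The summed signal of 7 astrocyte markers was 35340 to 37800 with restraint and linalool, against 32050 to 34990 with linalool, and 36020 to 38070 with restraint, against 35460 to 36900 in controls. That of 7 neuronal markers was 19460 to 21360 with restraint and linalool, against 19750 to 22090 with linalool, and 0 of the 7 were called for that comparison or for the average effect (limma, lowest adjusted p 0.319 and 0.486). Pituitary markers (7, 3 above the filter) summed to 2423 to 6139 with restraint and linalool, 2842 to 4410 with linalool, 4594 to 7116 with restraint and 269.5 to 6983 in controls. For 3 blood markers (2 above the filter) the sums were 2730 to 6702, 2969 to 7628, 5383 to 10020 and 2938 to 5880 in the same order.

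The summed signals of oligodendrocyte, endothelial and ependymal markers overlapped between restraint with linalool and linalool. Those of 5 oligodendrocyte markers were 18080 to 20590 with restraint and linalool, 19460 to 21490 with restraint, 19570 to 22350 with linalool and 20890 to 24960 in controls. Those of 5 endothelial markers were 1916 to 2735 with restraint and linalool, 2341 to 3428 with restraint, 2554 to 2879 with linalool and 2769 to 3463 in controls. Those of 5 ependymal and choroid plexus markers, 3 of them above the filter, were 398.7 to 921.7 with restraint and linalool, 309.2 to 399.8 with restraint, 297.8 to 457.4 with linalool and 272.9 to 340.3 in controls. Restraint also overlapped control in each list. The ranges for restraint with linalool and control did not overlap in any of the 3, a comparison that differs in both restraint and odour.

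**Figure D4:**
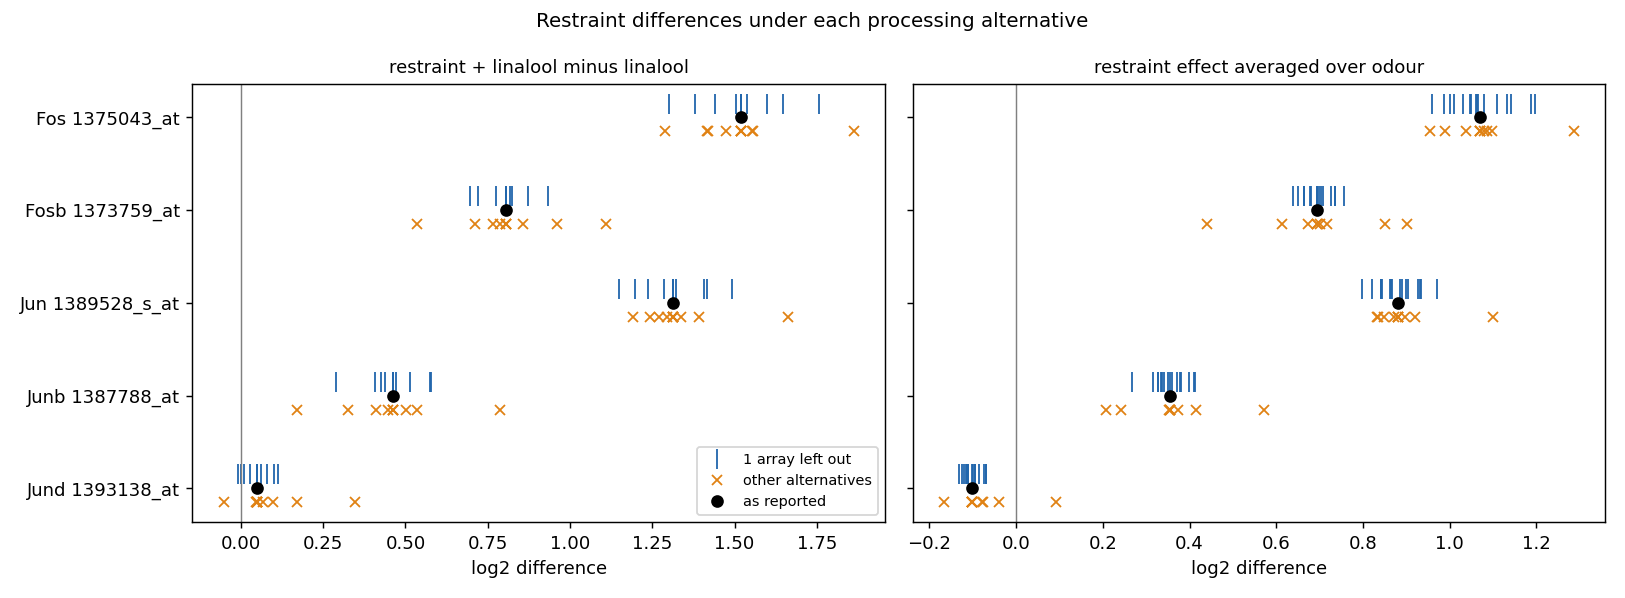
Log2 differences (horizontal axes) of the 5 representative probe sets (vertical axis) for restraint with linalool against linalool (left) and the average restraint effect (right), as reported (points), with 1 array left out (ticks) and under other alternatives (crosses). Fos, Fosb and Jun stay above 0 throughout, while Jund runs from -0.166 to 0.348.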

How the data were processed

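Hypothalamic RNA of 16 rats was hybridized to 1 single-colour Affymetrix array each. The deposited signal intensity values were made by the authors with MAS5, per the submitters' processing notes; its version and scaling target are not given in the sources used here. Values were quantile-normalized on the log2 scale, turned back, and 16 was added before the final log2. The 57 control probe sets were left out, and probe sets at or above the 40th percentile of mean level were kept (18625). Of 31042 probe sets 20826 had 1 gene symbol, 436 several and 9780 none in the annotation used. A gene is represented by its brightest kept probe set.

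A group-means model over 16 arrays was fitted with limma 3.58.1 in R 4.3.3 (lmFit, eBayes, two-sided, 12 residual and 3.97 prior degrees of freedom), with 8 comparisons and adjustment over all kept probe sets, and was tested on simulated data. Probe sets below the filter had exact permutation tests. The number of arrays limits the precision. The members, gene lists, filter and alternatives were chosen with earlier results of these data known. By the rule for named genes, all members, up to 4 called genes per list (otherwise the 2 of lowest p) and the 5 genes most like Fos and Jun are named. Chosen outside it are Penk, Pdyn, Nts and the markers.

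No 2 arrays held identical values. Rat numbers in the labels recur in each group and were not treated as pairs in the main fit. The alternatives were 2 other scalings, 2 pseudocounts, 2 filters, array weights, fits of 2 groups, a block for rat number, the BioC split and each array left out.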

Additional observations from a re-analysis of the deposited data

Results flagged for a closer look

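In each group of 4 rats, the gap of the highest or lowest rat to its nearest neighbour was divided by the range of the group, over 48 groups (12 probe sets in 4 groups), and 3 exceeded Dixon's 95% critical value of 0.829, where chance exceeds it in about 1 of 20 groups. All 3 belong to Jund. Control rat 1 was the highest control on 1393138_at (ratio 0.877, signal 4252 against 3515 to 3598 in the other 3). Control rat 2 was the lowest control on 1387762_s_at (0.853, signal 3.083 against 65.48 to 88.54). Restrained rat 4 was the highest restrained rat on the dim 1375768_at (0.984, signal 13.71 against 1.436 to 1.588). No group of the Fos, Fosb, Fosl2, Jun or Junb probe sets exceeded it.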

How the results depend on the processing

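On their brightest probe sets, Fos, Fosb and Jun kept their direction under restraint, with and without averaging over odour, in every alternative run. The number of the 5 member genes called for restraint with linalool against linalool was 3, was 0 without the 3 BioC-high arrays, and ranged from 1 (without restraint with linalool rat 2) to 3 with 1 array left out; fewer arrays were fitted there, and no other cause was tested. All probe sets called numbered 314 in that comparison, 73 to 1103 in the other settings and 113 to 397 with 1 array left out. They numbered 784 for the average effect, against 458 to 1035 and 489 to 1005, 168 for restraint against control, against 53 to 168 and 70 to 202, and 748 for restraint with linalool against control, against 203 to 784 and 260 to 1044. They numbered 121 for linalool among restrained rats, against 0 to 484 and 29 to 233, and 133 for the average linalool effect, against 0 to 236 and 37 to 357. With rat number as a replicate block, Fos, Fosb and Jun stayed called for restraint with linalool against linalool (adjusted p = 0.00268, 0.00856 and 0.00374, limma), and Jun 1374404_at lost its average call (0.65, adjusted p = 0.0505). Over all kept probe sets, deviations of same-numbered arrays correlated at -0.164 to 0.226, and 5 of 16 arrays correlated best with their own number. Such correlations cannot exclude a link between same-numbered rats in single genes. On Fos 1375043_at rat 1 was the highest in each group, and the block lowered its SE from 0.288 to 0.196. Whether the numbers reflect a shared order of handling was not tested. The differences below changed sign, and the cause was not tested. With deposited values, Jund 1393138_at gave 0.092 for the average restraint effect and 0.086 for restraint with linalool against control. Linalool against control then gave -0.168 for Fos, -0.174 for Jun 1369788_s_at and -0.153 for 1374404_at. With a common median these were 0 for Fos and -0.003 for 1369788_s_at, and Jund 1393138_at was -0.052 for restraint with linalool against linalool and 0.026 for average linalool. Array weights gave -0.036 and -0.057 for the 2 Jun probe sets in linalool against control. They gave -0.081 for Jund 1387762_s_at in restraint with linalool against control and 0.031 for Jund 1393138_at with average linalool. The BioC block gave -0.038, -0.19 and -0.041 for 1369788_s_at, 1374404_at and Fos in linalool against control. Without the BioC-high arrays 1374404_at gave -0.105 in linalool against control. Jund 1387762_s_at gave -0.123 in restraint with linalool against control, and Junb -0.077 for the interaction. With 1 array left out, Jund 1393138_at ran from -0.01 to 0.112 (restraint with linalool against linalool) and -0.033 to 0.032 (average linalool). Jund 1387762_s_at ran from -0.045 to 0.773 (restraint), -0.454 to 0.127 (average restraint), -0.719 to 0.17 (linalool among restrained), -0.459 to 0.701 (both against control) and -0.005 to 0.575 (average linalool). Jun 1369788_s_at ran from -0.032 to 0.114 (restraint) and -0.053 to 0.087 (linalool), Jun 1374404_at from -0.208 to 0.135 (linalool) and Fos from -0.097 to 0.171 (linalool). Signals near background limit Fosl2 and the dim Fos and Jund probe sets.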
